A study of Mus musculus with 8 samples.

Results

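The P2X receptors and the acid-sensing ion channels were followed as one set of 10 genes in embryonic mouse dorsal root ganglia (DRG): P2rx2, P2rx3, P2rx4, P2rx5, P2rx6 and P2rx7, and Asic1, Asic2, Asic3 and Asic4. They were taken by symbol, through their Ensembl identifiers, from the 55414 genes listed for each library. The set was chosen with earlier results of these data known. All 10 passed the filter on low counts, which left 17721 genes for testing. Their counts per library ran from 29 for Asic4 to 19991 for P2rx3, so that the precision differed strongly between members. P2rx2, P2rx4, P2rx7 and Asic3 lie on chromosome 5, Asic2 and P2rx5 on chromosome 11, and Asic4, P2rx3, Asic1 and P2rx6 on chromosomes 1, 2, 15 and 16.

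Bulk RNA-seq was performed on DRG of E18.5 embryos, labelled as neurons and glia, with 4 libraries per group. AD1 OE embryos carried AdvillinCre/+ and Rosa26Dach1/+, in which Cre made under the Advillin locus of postmitotic somatosensory neurons removes a stop cassette placed before Dach1-IRES-EGFP. Control embryos were Advillin+/+ with the same Rosa26Dach1/+ allele, still stopped, and the Rosa26Dach1 mice were of mixed C57Bl/6J and CD1 background. No group had Cre without the Dach1 allele, so the effects of Cre, of the altered Avil locus and of Dach1 cannot be told apart. Each group is described as 4 embryos, as many as it has libraries.

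P2X receptors are trimeric cation channels that open when extracellular ATP, released by damaged or stimulated cells, binds between their subunits. Acid-sensing ion channels (ASICs) are trimers of the DEG/ENaC family that open when the extracellular pH falls. In DRG, P2rx3 is a classic channel of non-peptidergic nociceptors, alone or combined with P2rx2, and Asic3 is the proton sensor best known from sensory neurons, where Asic1 and Asic2 can join it in mixed channels.

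The members are related in sequence, and the reads were assigned to genes by alignment. The coding bases around a functional motif shared within each subfamily are therefore shown here for the members on which the results turn. The ASIC stretches hold the glycine-alanine-serine motif of the pore, and the P2X stretches hold the asparagine-phenylalanine-arginine motif of the ATP site. Capitals mark the 9 bases of the motif, and 24 bases are given on either side, 5′ to 3′ on the coding strand, from the GENCODE M21 coding sequences. The ASIC motif lies in exon 8 of each transcript, starting at codon 475 of Asic1, 492 of Asic2, 446 of Asic3 and 452 of Asic4. The P2X motif starts at codon 313 of P2rx2 and 279 of P2rx3, and its stretch runs from exon 8 into exon 9.
Asic1: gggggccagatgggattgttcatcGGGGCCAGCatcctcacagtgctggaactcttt
Asic2: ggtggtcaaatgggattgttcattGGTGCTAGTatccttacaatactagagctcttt
Asic3: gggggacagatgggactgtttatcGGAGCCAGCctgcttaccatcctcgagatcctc
Asic4: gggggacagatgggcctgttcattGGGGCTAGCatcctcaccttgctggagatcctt
P2rx2: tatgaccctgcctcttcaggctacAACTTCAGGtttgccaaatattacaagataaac
P2rx3: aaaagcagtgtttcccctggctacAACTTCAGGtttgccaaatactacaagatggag

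Over these 57 bases, Asic3 shared 42 with Asic1, 40 with Asic2 and 45 with Asic4, and the longest unbroken identical run between any pair of the 4 ASICs was 14 bases. P2rx2 and P2rx3 shared 42 bases, with an identical run of 26. No 50-base window of any member's transcripts occurred in the transcripts of another member, so a read of that length or longer could not match 2 members without a mismatch. Such windows occurred elsewhere for 4 members. Of the windows of Asic4, 11.1% lay opposite Gm37264, and of those of P2rx6, 7.97% lay opposite Slc7a4. For P2rx4 and P2rx7 the share was 1.63% and 1.17%.

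The overexpressed gene and the Cre locus separated the groups. Levels of single genes are given in CPM, the counts of a gene scaled to a common library total. Dach1 reached 95.9 ± 5.28 CPM (SD, n = 4) in AD1 OE against 32.6 ± 1.64 in Control, and Avil, which encodes advillin and loses 1 intact copy to Cre, 464 against 892. Total counts ran from 22339059 to 44025625 per library. By Xist and Y-linked transcripts, AD1 OE libraries 1, 2 and 4 and Control library 4 came from male tissue and the other 4 from female tissue. The 8 pan-neuronal markers, Isl1 and Pou4f1 among them, summed to 5883 to 6687 CPM in AD1 OE and 6376 to 6577 in Control. Endothelial, fibroblast, erythroid and skeletal muscle marker sums overlapped between the groups as well. Skeletal muscle markers, which DRG should lack, summed to 131 to 723 CPM in AD1 OE and 156 to 432 in Control.

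By edgeR, Asic3 was the 1 member that passed the cut-off applied here and in the study, an adjusted p under 0.005 with an absolute log2 fold change over 0.25. It rose in AD1 OE by 31.7%, while Asic4, a subunit not known to form a proton-gated channel by itself, lay at 49.4% of its Control level. Asic4 missed the cut-off by edgeR (adjusted p 0.0052) and passed it by DESeq2, the tool the study used (adjusted p 6.88e-05), and by limma-voom (adjusted p 0.0043). Asic2 was higher and passed an adjusted p of 0.05 alone. P2rx3 and P2rx2 were also higher in every AD1 OE library, without passing. By edgeR's quasi-likelihood test, 1 of 10 members was called higher and none lower, beside 2.57% of all tested genes called, 0.784% higher and 1.78% lower. At an adjusted p under 0.05 alone 3 members passed, 2 higher and 1 lower, beside 6.55% of all genes, 2.42% higher and 4.14% lower. The 2 groups of 4 libraries did not overlap for 6 of 10 members, 4 higher and 2 lower in AD1 OE, beside 13% of all genes, 5.69% higher and 7.26% lower. At an unadjusted p under 0.05 there were 6 members, beside 18.6% of all genes. The median log2 fold change was 0.099 over the members and 0.002 over all tested genes. Because the members were chosen with earlier results known, these shares are descriptions and not a test of the set.

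**Figure D1:**
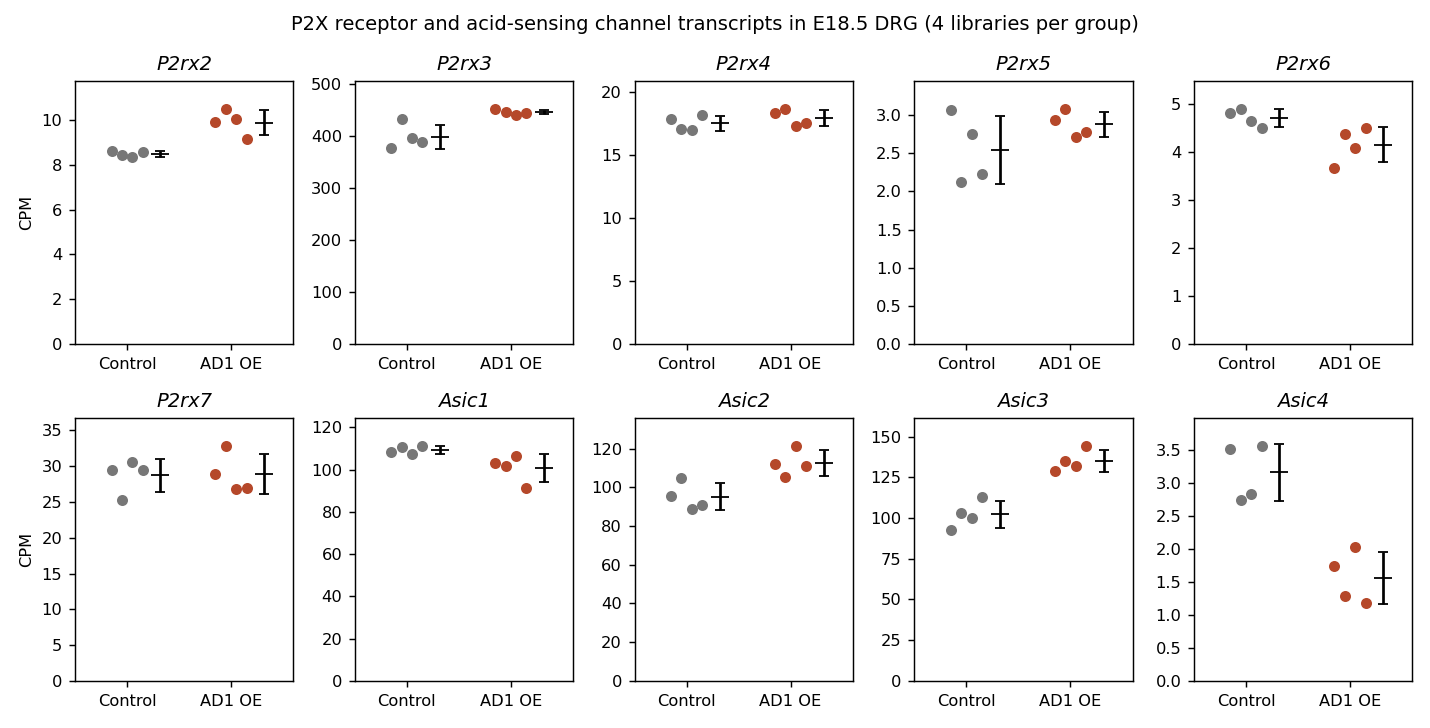
CPM (y axis, from 0) of each member in the 4 Control (grey) and 4 AD1 OE (red) libraries, with the mean and SD of each group in black. Points of the groups lie fully apart for P2rx2, P2rx3, Asic2 and Asic3 (AD1 OE above) and for Asic1 and Asic4 (AD1 OE below).

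Among the acid-sensing channels, Asic3 encodes the subunit that responds to small falls in pH in sensory neurons. It was measured at 129, 135, 132 and 144 CPM in AD1 OE libraries 1 to 4 and at 92.7, 103, 100.3 and 113 CPM in Control libraries 1 to 4. Every AD1 OE library lay above the highest Control library, which was number 4. The means were 135 ± 6.72 and 102 ± 8.42 CPM (SD, n = 4), a log2 fold change of 0.40 (SE 0.06, 95% interval 0.27 to 0.52). Its edgeR adjusted p was 0.0010. The change was called in all 16 other fits, with log2 fold changes from 0.34 to 0.45. Male and female embryos were unequally spread over the groups, and within them the log2 ratio of mean CPM was 0.27 in males (3 AD1 OE, 1 Control) and 0.42 in females (1 and 3), with no test.

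Asic4 was the member with the widest gap between the groups and the lowest counts, 29 to 126 reads per library. It was measured at 1.74, 1.29, 2.03 and 1.19 CPM in AD1 OE and at 3.51, 2.74, 2.83 and 3.56 CPM in Control. The highest AD1 OE library, number 3, stayed below the lowest Control library, number 2. The means were 1.56 ± 0.392 and 3.16 ± 0.434 CPM (SD, n = 4), a log2 fold change of -1.003 (SE 0.18, 95% interval -1.40 to -0.61). With an edgeR adjusted p of 0.0052 it was not called. It was called in 4 of the 16 other fits, namely by DESeq2, by limma-voom, without the expression filter and without AD1 OE replicate 3, and its adjusted p was at most 0.0213 in all 16. The log2 ratio was -1.34 in males and -0.58 in females, with no test.

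Spinal cord markers were set beside Asic4, since adjoining tissue can be dissected with DRG. The 7 spinal cord markers (Olig1, Olig2, Slc32a1, Pax2, Mnx1, Chat and Slc6a5) summed to 21.5, 2.49, 4.21 and 10.9 CPM in Control libraries 1 to 4 and to 2.35, 2.72, 5.39 and 4.14 CPM in AD1 OE. Of these, 5 passed the expression filter, while Mnx1 and Chat stood at or near 0. By edgeR none was called, 2 had an unadjusted p under 0.05, and DESeq2 and limma-voom called none. The median log2 fold change of the 5 was -1.42, lower in AD1 OE, though the marker sums overlapped between the groups. Control libraries 1 and 4 held the highest marker sums and the highest Asic4. Of these, Control library 1 had more of the markers and slightly less Asic4. AD1 OE library 3 held the highest sum and the highest Asic4 of its group. AD1 OE library 4 had the second-highest sum of its group and the lowest Asic4. Control libraries 2 and 3 had marker sums inside the AD1 OE range and more Asic4 than any AD1 OE library. The part of spinal cord tissue in the Asic4 values was not tested. Control libraries 1 and 4 were also both left out, a choice made after seeing the data. As they held the highest Asic4 of Control, a smaller gap for Asic4 followed from that choice. The log2 fold change of Asic4 was then -0.82 (edgeR adjusted p 0.0824) and that of Asic3 0.41 (edgeR adjusted p 0.0014). With fewer Control libraries 254 genes in all were called, beside 455 with all libraries. This fit therefore cannot tell spinal cord tissue from the loss of libraries. Asic4 also shares 493 exon bases, 18.1% of its exons, with Gm37264 on the other strand, for which 4 to 12 reads per library were counted.

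**Figure D2:**
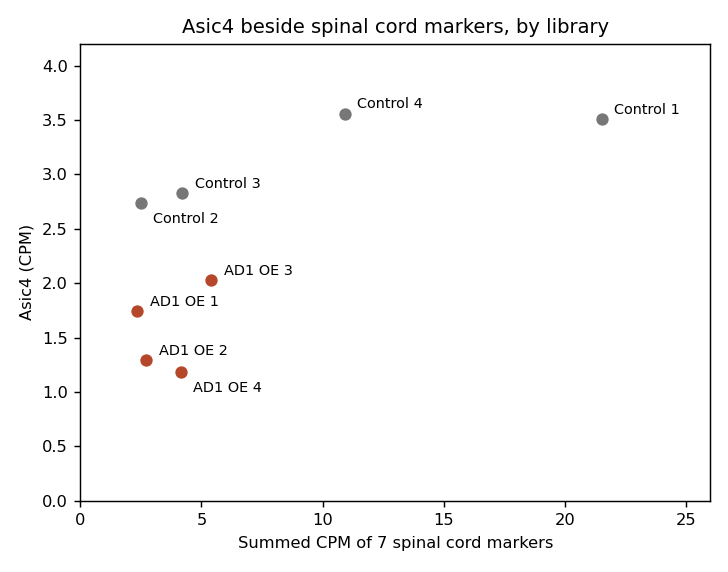
Asic4 (y axis, CPM) against the summed CPM of 7 spinal cord markers (x axis) in each library, Control in grey and AD1 OE in red. Control 1 and Control 4 stand to the right at 21.5 and 10.9 CPM of markers, and Control 2 and 3, at 2.49 and 4.21, lie above the 4 AD1 OE libraries.

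Asic2, whose product mostly tunes channels formed with other subunits, was measured at 112, 106, 121 and 111 CPM in AD1 OE and at 95.7, 104.6, 89.1 and 91.1 CPM in Control. The groups did not overlap, but library 2 of AD1 OE and library 2 of Control, at 105.6 and 104.6 CPM, nearly met. Its log2 fold change was 0.24 (SE 0.06, 95% interval 0.12 to 0.36) with an edgeR adjusted p of 0.0217. In 4 of the 16 other fits, the replicate block and those without AD1 OE replicate 1, Control replicate 3 or Control replicate 4, the adjusted p was over 0.05 and at most 0.0695. Asic1, the subunit of broadest expression among neurons, had means of 101 ± 6.63 CPM in AD1 OE and 109 ± 1.79 in Control. All AD1 OE libraries lay below the Control libraries, by a log2 fold change of -0.12 (95% interval -0.22 to -0.02), which did not pass (edgeR adjusted p 0.169). With 1 library left out the estimate ran from -0.14 to -0.07, nearest to 0 without AD1 OE replicate 4. The 4 ASIC genes therefore held estimates in both directions.

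Among the P2X receptors 5 of 6 estimates were above 0, beside 8956 of all 17721 tested genes. Those of P2rx4 (0.04) and P2rx7 (0.01) were close to 0. None of the 6 was called or passed an adjusted p of 0.05 by edgeR. At an unadjusted p under 0.05 there were 2, P2rx3 and P2rx2, and DESeq2 and limma-voom called none. P2rx3 was measured at 452, 447, 441 and 445 CPM in AD1 OE and at 377, 432, 396 and 389 CPM in Control. The 4 AD1 OE libraries lay close together and above each Control library. Its log2 fold change was 0.16 (SE 0.05, 95% interval 0.06 to 0.26), with an edgeR adjusted p of 0.0642 that fell below 0.05 in 5 of the 16 other fits, to 0.0056 by DESeq2.

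P2rx2, which slows the desensitization of channels that it forms with P2rx3, was measured at 9.88, 10.5, 10.02 and 9.14 CPM in AD1 OE and at 8.59, 8.44, 8.33 and 8.56 CPM in Control. Each AD1 OE library was above each Control library. The log2 fold change was 0.22 (SE 0.07, 95% interval 0.07 to 0.37) and the edgeR adjusted p 0.0910, and it was over 0.05 in all 16 other fits.

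The other 4 P2X receptors overlapped between the groups. P2rx7, the ATP receptor of macrophages and glia, had means of 28.9 ± 2.80 CPM in AD1 OE and 28.7 ± 2.34 in Control, with a 95% interval of the log2 fold change from -0.16 to 0.18. P2rx4, also a receptor of macrophages, was at 17.9 ± 0.643 and 17.5 ± 0.595 CPM, with an interval from -0.08 to 0.16. P2rx6, which hardly forms channels by itself, had an interval from -0.40 to 0.03 and P2rx5 one from -0.11 to 0.50, at 2.12 to 4.89 CPM over both genes. These intervals leave room for a rise of the size seen for P2rx3 in each of P2rx5 and P2rx7, and for a fall of that size in P2rx6. The counts of P2rx5 (68 to 130 reads) limited its precision most. Part of P2rx6 (13.9% of its exon bases) overlaps Slc7a4 on the other strand, which was not called (edgeR adjusted p 0.369).

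**Figure D3:**
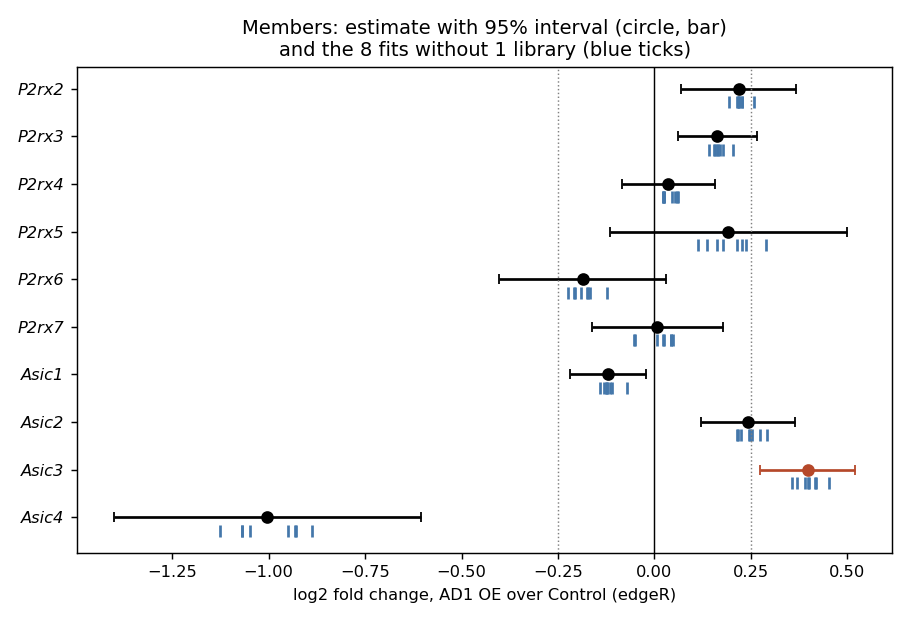
Log2 fold change of AD1 OE over Control (x axis) for each member, with the edgeR estimate (circle) and its 95% interval (bar), and the 8 estimates that each leave out 1 library (blue ticks); dotted lines mark 0.25 in either direction. The ticks of Asic3 run from 0.36 to 0.45 and those of Asic4 from -1.13 to -0.89, and those of P2rx7 fall on both sides of 0.

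Levels were compared between members per length, in units of TPM, the counts per kilobase of exon union scaled to the same total in each library. In Control, P2rx3 stood first at 559 ± 40.6 TPM, followed by Asic3 at 165 ± 16.1, Asic2 at 87.2 ± 6.10 and Asic1 at 74.5 ± 2.25. P2rx7, P2rx2 and P2rx4 followed at 18.8, 12.9 and 9.74 TPM. P2rx6, Asic4 and P2rx5, at 4.61, 4.52 and 4.14 TPM, did not differ from their neighbours in this order beyond the ranges of the libraries. In AD1 OE the first 7 places were the same, and Asic4 moved to the last, at 2.32 ± 0.594 TPM, with no overlap between neighbours.

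P2rx3 made up 91.7% ± 0.740 of the summed P2X level in Control and 92.2% ± 0.399 in AD1 OE, and the groups overlapped. The summed P2X level was 703 ± 5.70 TPM in AD1 OE and 609 ± 39.6 in Control, without overlap. Within this sum only the shares of P2rx6 did not overlap, at 0.757% in Control and 0.600% in AD1 OE. The summed ASIC level was 406 ± 10.4 TPM in AD1 OE and 331 ± 19.6 in Control, also without overlap. TPM and CPM were scaled to different totals, only CPM with TMM, and the gaps were smaller in CPM, which is not per length. In CPM the P2X sums were 510 in AD1 OE and 461 in Control, and the ASIC sums 350 and 310, again without overlap. Why the gaps differed was not tested. The composition of the ASIC sum differed between the groups. Asic3 made up 55.6% ± 2.33 in AD1 OE and 49.8% ± 2.28 in Control, Asic1 17.5% ± 1.29 and 22.5% ± 0.694, and Asic4 0.572% ± 0.141 and 1.37% ± 0.199, with no overlap for any of these. Shares of one sum depend on each other, so a larger Asic3 share by itself lowers the others. In TPM the Asic1 level itself overlapped, at 64.4 to 75.8 in AD1 OE and 71.3 to 76.3 in Control, though in CPM it did not. Asic2 held 26.3% in both groups. These shares are descriptions with no test, and they describe RNA in the tissue, not channels.

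**Figure D4:**
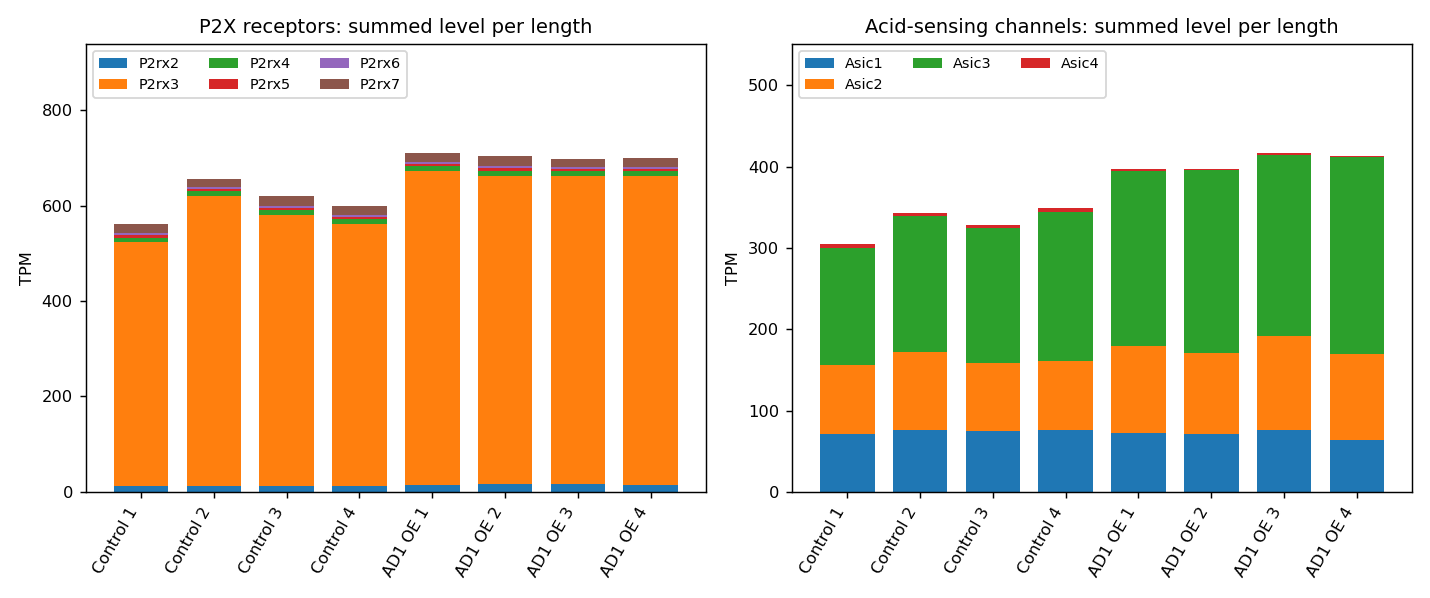
Summed level (y axis, TPM) of the 6 P2X members (left) and the 4 ASIC members (right) in each library, stacked by gene. P2rx3 fills most of the left bars in every library, and the right bars are taller in AD1 OE, with a larger Asic3 segment.

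Since the ganglia were sequenced in bulk, these counts cannot tell fewer cells of a type from less RNA per cell. From immunostaining for Islet1, Prdm12, TrkB and TrkC in E18.5 AD1 OE embryos, the study reports that main neuron subtypes arose in appropriate numbers. In the study, Prdm12 labels nociceptors together with the unmyelinated touch neurons. P2rx3 marks non-peptidergic nociceptors, whose 7 other markers summed to 1623 to 1768 CPM in AD1 OE and 1590 to 1794 in Control. Of these, Plxnc1 was called higher, Mrgprd, Gfra2 and Lpar3 lower, and 3 were not called. The 6 peptidergic markers, genes of cells that release neuropeptides, summed to 1161 to 1248 CPM in AD1 OE and 1455 to 1489 in Control, with Calca, Tac1 and Adcyap1 called lower. The 8 macrophage markers summed to 121 to 142 CPM in AD1 OE and 132 to 147 CPM in Control, and the 8 glial markers to 1041 to 1302 and 1077 to 1301 CPM. Neither list had a gene called by edgeR, DESeq2 or limma-voom, and 3 macrophage and 2 glial markers had an unadjusted edgeR p under 0.05. The 4 markers of C-LTMRs, the unmyelinated touch neurons, summed to 188 to 198 CPM in AD1 OE and 169 to 189 CPM in Control, with Th called higher and Tafa4 lower. The 5 proprioceptor markers summed to 467 to 580 CPM and 524 to 585 CPM, with Etv1 called lower by edgeR and 3 markers called by DESeq2. No defining marker of these lists was at 0. Their part in the values of the members was not tested.

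The genes nearest to Asic3 in profile over the 8 libraries, by the root mean square difference of centred log2 CPM among 13948 genes, were Gria1 (0.048), Col24a1 (0.059) and Mef2c (0.060). Gria1, an AMPA glutamate receptor subunit, had a log2 fold change of 0.43. Col24a1, a fibrillar collagen, had one of 0.43 and Mef2c, a transcription factor, one of 0.38. Since the profiles were matched over both groups, fold changes near that of Asic3 followed from the selection.

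Around the channels, 47 genes of ATP release, nucleotide breakdown, purine signalling, proton sensing and ASIC regulation were listed, of which 38 could be tested. Of these 1 was called higher and none lower by edgeR, a share of 2.63% beside 2.57% of all tested genes. At an adjusted p under 0.05, 3 were higher and 2 lower, beside 2.42% and 4.14% of all genes, 11 had an unadjusted p under 0.05, and the median log2 fold change was -0.02. The called gene was Adora2a, a receptor for adenosine, at 9.68, 7.97, 10.6 and 9.07 CPM in AD1 OE and at 6.61, 6.60, 6.52 and 6.52 CPM in Control. The Control libraries were nearly equal and all lower. Its log2 fold change was 0.51 (SE 0.09) with an edgeR adjusted p of 0.0043. It was called in 8 of the 16 other fits, and lost the call with the replicate block (adjusted p 0.0134) and when any 1 library other than AD1 OE replicate 2 was left out (adjusted p up to 0.0196).

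P2rx1, an ATP receptor of smooth muscle and platelets and not among the 10 members, was at 3.32 ± 0.348 CPM in AD1 OE and 2.17 ± 0.294 in Control (log2 fold change 0.62, edgeR adjusted p 0.0178). Adora1, a further adenosine receptor, was at 26.7 ± 1.26 and 22.8 ± 0.286 CPM (log2 fold change 0.23, edgeR adjusted p 0.0213). Panx1, the pannexin channel through which cells release ATP, was at 92.6 ± 5.09 and 106 ± 1.74 CPM (log2 fold change -0.20, edgeR adjusted p 0.0110). Stoml1, a stomatin-like partner of ASICs, was at 93.8 ± 0.899 and 102 ± 3.63 CPM (log2 fold change -0.13, edgeR adjusted p 0.0469). The groups did not overlap for any of these genes, which were named because their adjusted p was under 0.05. Among the 38 tested genes around the channels the groups lay apart for 5, beside 13% of all tested genes. The adjusted p was under 0.05 in 13 of the 16 other fits for P2rx1, in 10 for Adora1, in 15 for Panx1 and in 2 for Stoml1.

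None of the 9 tested genes of extracellular nucleotide breakdown passed an adjusted p of 0.05 by edgeR, 2 had an unadjusted p under 0.05, and 1 passed by DESeq2. The most abundant of them, Acp3, the prostatic acid phosphatase that turns AMP into adenosine on nociceptors, was at 265 ± 22.3 CPM in AD1 OE and 240.3 ± 20.6 in Control, and Entpd2, an ATP-cleaving enzyme of glia, was at 56.9 and 61.2 CPM. Likewise none of the 7 other proton sensors passed by edgeR, 2 had an unadjusted p under 0.05 and 1 passed by DESeq2, with Trpv1, the capsaicin receptor, at 70.2 ± 10.1 and 76.6 ± 2.46 CPM and the proton-activated chloride channel Pacc1 at 22.7 and 22.6 CPM. Of the P2Y receptors, P2ry1 was at 34.1 ± 3.56 and 41.4 ± 4.66 CPM (edgeR adjusted p 0.0899) and P2ry2 at 19.7 and 18.4 CPM. The ASIC-binding proteins S100a10, at 412 and 440.4 CPM, and Dlg4, at 161 and 165 CPM, did not pass. Panx2 and Calhm2, further release channels, and the sodium channel subunit Scnn1a, had edgeR adjusted p-values of 0.698, 0.782 and 0.922.

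**Figure D5:**
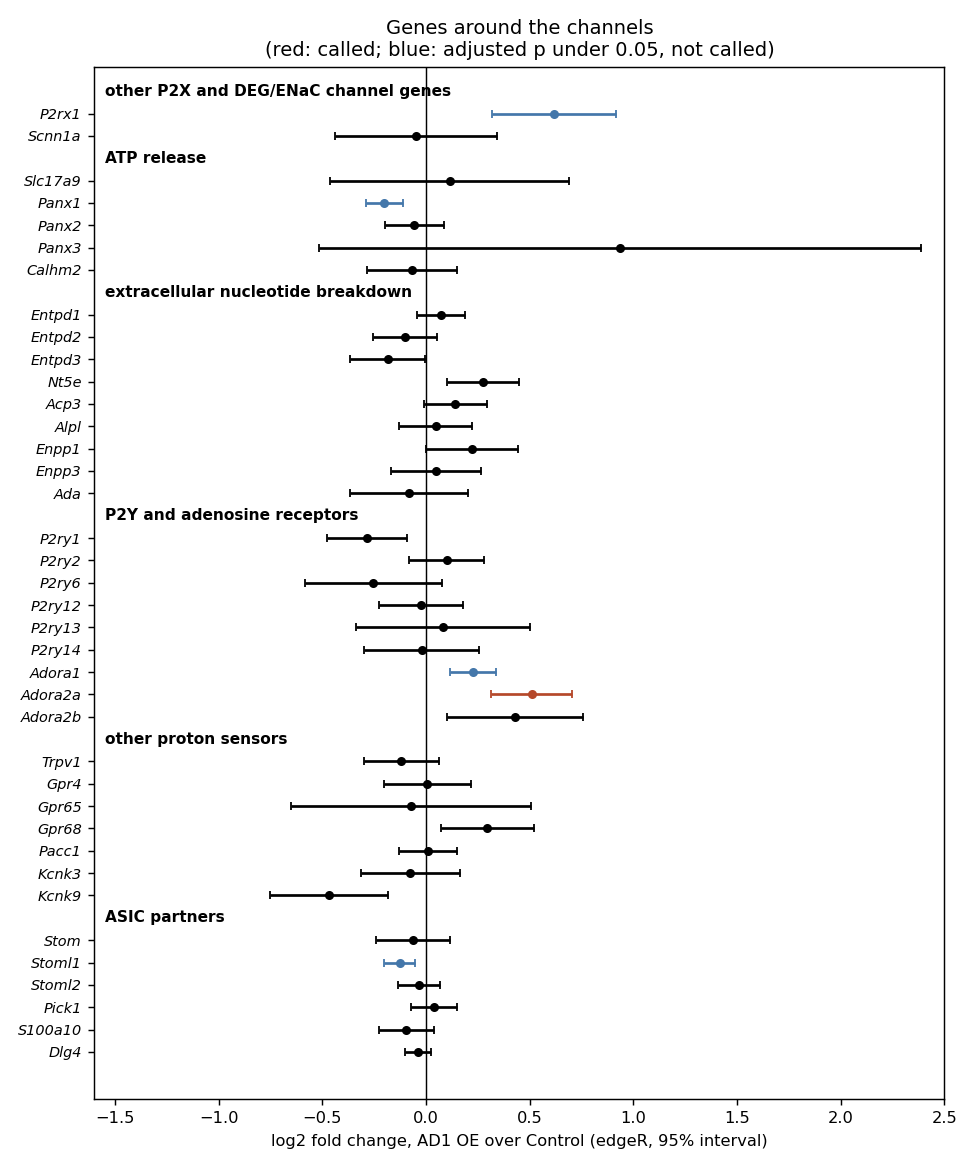
Log2 fold change of AD1 OE over Control (x axis) with its 95% interval for the 38 tested genes around the channels, grouped by role. Adora2a (red) was called, and P2rx1, Panx1, Adora1 and Stoml1 (blue) had an adjusted p under 0.05 only.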

How the data were processed

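Per the study's methods, RNA of dissected E18.5 DRG was made into Illumina Stranded mRNA libraries, aligned to GRCm39 with STAR 2.7.8a and counted with featureCounts 2.0.1. Whether counting used the strand is not given in the sources used here, so reads of antisense partners may be mixed. The deposited values are raw counts per Ensembl gene, 1 file per library, without normalization by the authors. Symbols, exon lengths and coding sequences came from GENCODE M21 (an older build), which named 52133 of 55414 genes, so no genome coordinates are given. Counts were filtered with filterByExpr, scaled by TMM and fitted with edgeR 4.0.16 (R 4.3.3) on genotype, and p-values were adjusted by Benjamini-Hochberg over 17721 genes. CPM uses TMM-scaled totals. The script was tested on simulated data. The 16 other fits used DESeq2 1.42.0, limma-voom 3.58.1, RLE or no scaling, no filter or at least 1 CPM in at least 4 libraries, the replicate number as a block, sex as a covariate, and each library left out. The members and lists were chosen with earlier results of these data known. Named were all members, listed genes with an adjusted p under 0.05, up to 2 other genes of highest CPM per list, and the 3 genes nearest to a called member, of at least 1 CPM, with a pseudocount of 0.5. Intervals at 95% and SDs reflect libraries. Replicates differed beyond counting noise (chi-square per degree of freedom 4.37 to 12.1).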

Additional observations from a re-analysis of the deposited data

How the results depend on the processing

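Of the 10 members, Asic3 was called higher in every fit, with its highest adjusted p, 0.0049, without Control replicate 2. Members called were 2 with DESeq2, with limma-voom and without an expression filter, 1 or 2 with 1 library left out, and 3 at an adjusted p under 0.05, and at a further absolute log2 fold change over 1 the 1 member called was Asic4 and not Asic3. Without an expression filter 747 genes in all were called, at an adjusted p under 0.05 1161, with a log2 fold change over 1 129, and with 1 library left out 289 to 420. Of the genes around the channels 3 were called without a filter, 5 at an adjusted p under 0.05, 0 with a log2 fold change over 1 or with the replicate block, by edgeR, where 11 and 14 of them had an unadjusted p under 0.05, and 0 or 1 with 1 library left out. Adora2a was lost in 7 of the 8 fits without 1 library, and kept without AD1 OE replicate 2. At a log2 fold change over 1, Avil (-0.94) did not pass. With Control replicates 1 and 4 left out together, a setting added after seeing the data, 254 genes in all and 0 genes around the channels were called by edgeR, with 10 of the latter at an unadjusted p under 0.05. The log2 fold change of P2rx7 changed sign with sex as a covariate (-0.0391) and ran from -0.0543 without AD1 OE replicate 2 to 0.0488 with 1 library left out, also below 0 without Control replicate 2 (-0.0496), with an adjusted p of at least 0.771 in all 16 edgeR, DESeq2 and limma-voom fits. The cause of these changes was not tested. DESeq2 called 660 genes. The labels do not say that replicate numbers pair the libraries, and deviations of same-numbered libraries correlated at -0.01, -0.09, -0.02 and 0.38. With the replicate number as a block, 348 genes and 1 member (Asic3) were called, beside 455 and 1 without it. Using total counts alone moved the median log2 fold change of all genes to 0.02. With the longest transcript as length, P2rx3 held 93.3% of the P2X level in AD1 OE, and Asic3 51.4% and 45.4% of the ASIC level in AD1 OE and Control. Depth limits Asic4 and P2rx5 most.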
